A study of Arabidopsis thaliana with 6 samples.

Results

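RGA is an Arabidopsis DELLA protein, a nuclear repressor of gibberellin responses. Gibberellin binds a GID1 receptor, the receptor then binds the DELLA protein, and the DELLA protein is marked for breakdown. DELLA proteins are known to work at chromatin together with partner proteins, among them BOI-type RING proteins and the DNA-binding INDETERMINATE DOMAIN zinc fingers. The sites described here are the RGA-GFP peaks with the most tags at their summit in every replicate and with no peak in the wild type control. Members were chosen by pileup and by the absence of a wild type peak. A site was counted as a member when it was among the 1000 highest peaks of RGA-GFP replicate 1 by pileup, shared 1 bp or more with a top 1000 peak of replicates 2 and 3, and shared no base with a peak of any wild type library. Pileup is the number of extended sequencing tags that cover the summit. The rule chose 385 of the 10636 peaks of RGA-GFP replicate 1, which is 3.62%. The wild type lists were used to choose the sites, and all 6 libraries entered the choice, so pileups, folds and the absence of a wild type peak are given below as descriptions, with no test.

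The study was a chromatin immunoprecipitation and sequencing experiment on inflorescence apices of Landsberg erecta plants. The RGA-GFP plants carried the transgene RGAp:GFP-rga-delta17, a GFP fusion of an RGA form that gibberellin does not destabilise, under the promoter of RGA. Plants without an epitope were the wild type control and went through the same precipitation with anti-GFP beads. There were 3 biological replicates of each genotype, each from 1 to 2 g of apices fixed with 2% formaldehyde plus a second crosslinker, from plants grown at 20 to 22 °C with 16 h of light until about 10 mature flowers had formed. The labels name neither the number of transgenic lines nor the state of the native RGA gene in them. An apex holds many cell types, so a site bound in few cells and a site bound weakly in many cells cannot be told apart.

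The RGA-GFP libraries kept 14644122, 15704296 and 16745139 tags in replicates 1, 2 and 3. The wild type libraries kept 10014730, 8808462 and 3999159 tags. The RGA-GFP lists held 10636, 11116 and 9343 peaks, and the wild type lists held 972, 285 and 527. The wild type libraries were shallower, the third most of all, and a place without a wild type peak is a place where no peak was called at that depth. A list gives no value outside its peaks, so the wild type pileup at a member site was not measured directly.

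Of the 1000 highest peaks of replicate 1, 756 had a partner among the top 1000 of replicates 2 and 3. A wild type peak overlapped 371 of the 756, or 49.1%. Wild type replicate 1 overlapped 345 of them, replicate 2 overlapped 98 and replicate 3 overlapped 180. The other 385 are the members, and the 371 are used below as the sites most like them. At the lower end, the threshold was a pileup of 191 in replicate 1, which 1003 peaks reached. Ties at the threshold of each list were cut by chromosome and start, and keeping them gave 394 sites. The 3 lowest members had 191 there, at chr2:3378843-3379373, chr2:18471699-18472229 near AT2G44800 and chr4:14845936-14846443 near AT4G30350. Just outside the rule, 3 sites had 190, at chr1:21036060-21037739, chr1:24005451-24006209 and chr3:982583-983183, the last next to SAUR26, a gene of a family of small auxin-induced RNAs. Their pooled folds of 2.16, 2.57 and 1.75 lay within the range of the members.

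Each member was higher than the middle of its own list in all 3 replicates, as the rule requires. Pileups of the members ran from 191 to 505 in replicate 1, with a median of 230. In replicate 2 they ran from 191 to 501, with a median of 230, and in replicate 3 from 173 to 504, with a median of 201. The medians of the whole lists were 113, 117 and 117. Because the authors kept 1 tag per position and strand and extended each to 300 bp, pileup cannot pass 600. The 3 highest peaks of each list stood at that ceiling, and no member did.

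Divided by the tags kept and given per 1000000 tags, as scaled pileup, the replicates formed an order. In 370 of the 375 members that also had a pooled peak, replicate 3 gave the lowest scaled pileup, and in 315 replicate 1 gave the highest. The median ratio of replicate 3 to replicate 1 was 0.768 and that of replicate 2 to replicate 1 was 0.928. This order of libraries enters every standard deviation below. Across the 385 members the coefficient of variation over the 3 replicates had a median of 13.7%, with 65 members at 10% or less and 19 above 20%. Ranks of scaled pileup had Spearman coefficients of 0.775 between replicates 1 and 2, 0.678 between 1 and 3 and 0.751 between 2 and 3 over the 385 members, and those of fold had 0.954, 0.921 and 0.922. The points share their libraries and were cut at a threshold, so these are descriptions. Summits of both partner peaks lay within 50 bp of the replicate 1 summit at 261 members and within 100 bp at 351.

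**Figure D1:**
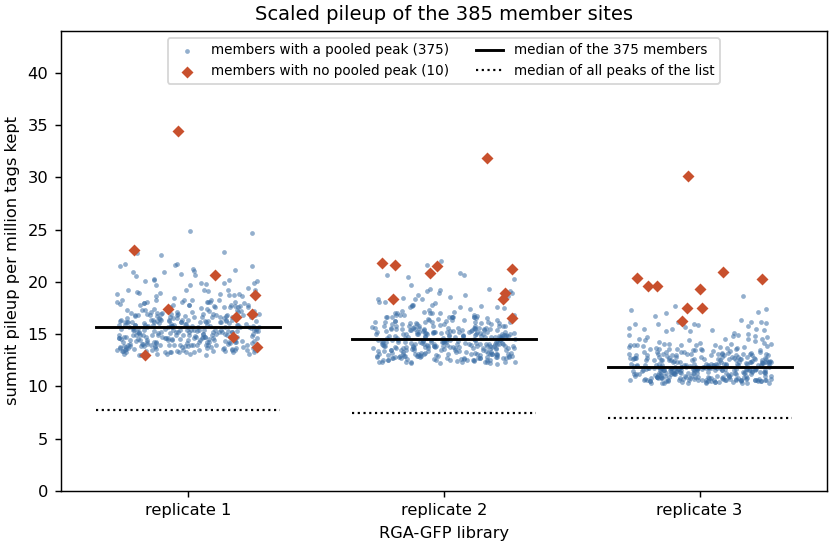
Summit pileup per 1000000 tags kept (vertical axis) at the 385 members in each RGA-GFP library (horizontal axis), with 1 point per site, solid lines at the medians of the 375 members that have a pooled peak and dotted lines at the medians of all peaks of the list. The solid lines stand at 15.7, 14.5 and 11.9 in replicates 1, 2 and 3. Most of the 10 members with no pooled peak (diamonds) do not follow that order.

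The authors' pooled list set the combined RGA-GFP tags against the combined wild type tags, and its fold is the RGA-GFP pileup over the local wild type background, with 1 added to each. A pooled peak overlapped 375 of the 385 members, or 97.4%. Among the 371 top sites with a wild type peak it overlapped 289, or 77.9%, and among all replicate 1 peaks 66.5%. The median pooled fold was 2.14 at the members, 1.80 at the top sites with a wild type peak and 1.70 over the 8112 pooled peaks. A pooled fold of 2 or more was reached by 269 members, or 69.9%, by 61 of the 371 top sites with a wild type peak, or 16.4%, and by 14.4% of all pooled peaks. The shares of the 385 and of the 371 count sites with no pooled peak as not reaching 2. The 14.4% is over pooled peaks alone, so its base is not the same. The rule removed sites with wild type peaks and the pooled fold divides by the wild type. The higher folds at members therefore come in part from the choice itself. Of the 50 highest pooled folds in the genome, 40 lay at a member and 0 at a top site with a wild type peak. These 40 are 80.0% of that list and 10.4% of the members.

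**Figure D2:**
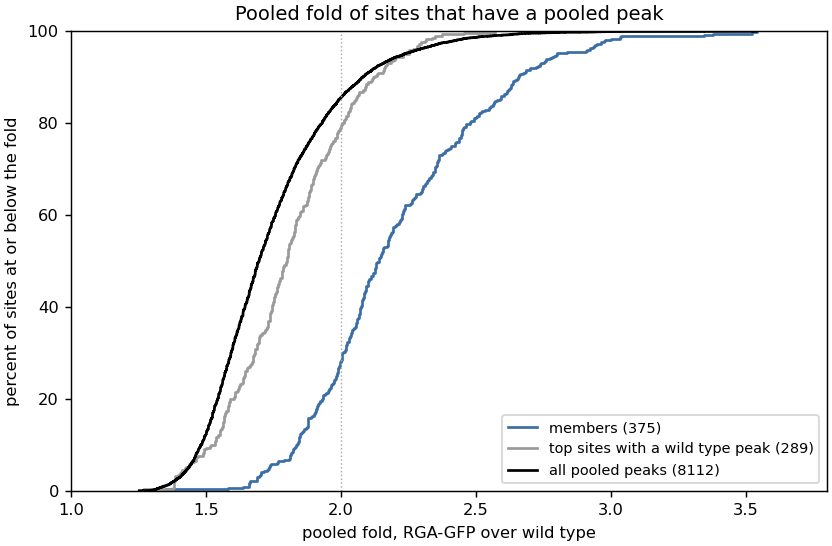
Percent of sites (vertical axis) at or below each pooled fold of RGA-GFP over wild type (horizontal axis), for the 375 members, the 289 top sites with a wild type peak and all 8112 pooled peaks. The curve of the members lies to the right, with a median of 2.14 against 1.80 for the sites with a wild type peak and 1.70 for all pooled peaks.

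The strongest member by this measure was also the highest fold of the whole pooled list. It lay at chr5:21061390-21062812, 1541 bp from PGM, the plastid phosphoglucomutase gene needed for starch synthesis. Its pileups were 364, 346 and 285 in replicates 1, 2 and 3, its scaled pileup 21.3 ± 3.97 (SD, n = 3) and its pooled fold 3.54. By pileup it ranked 2, 2 and 15 among the members in replicates 1, 2 and 3, and replicate 3 was the lowest, as at most members. Another member lay 6356 bp before it, at chr5:21054530-21055033, 390 bp downstream of the gibberellin synthesis gene GA20OX2. MEE3, a RADIALIS-like small MYB gene, had pileups of 335, 289 and 260 at chr2:9258110-9259523, 1041 bp upstream, with a pooled fold of 3.52. A site at chr4:2605833-2607156, in no gene window, had pileups of 264, 262 and 265 and a pooled fold of 3.38, with nearly level pileups before scaling.

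Of the 12 highest members by mean scaled pileup, 6 had a pooled peak and lay at genes of metabolism, membranes and flower development, and the other 6 had no pooled peak and are described further below. AT2G28390, a SAND family gene, had pileups of 362, 340 and 259 at chr2:12145258-12146074, 2018 bp upstream, and a pooled fold of 3.34. CSLA01, of the family of mannan synthases, had 333, 328 and 287 at chr4:9347513-9348202 inside the gene, and a pooled fold of 2.75. Both had folds over their own background above 4 in every replicate. SAC9, a phosphoinositide phosphatase gene, had 315, 321 and 289 at chr3:22077815-22078707, in a window shared with AT3G59765, with a pooled fold of 2.66. GSTU9, a tau class glutathione transferase gene, had 331, 324 and 261 at chr5:25086717-25087478, with a pooled fold of 2.97. Replicate 3 was the lowest at both. SPL8, an SBP-box transcription factor gene for anther development and fertility, had 318, 302 and 296 at chr1:363999-364934, 878 bp upstream, with a pooled fold of 2.37, and its window overlapped that of AT1G02060.

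Further sites among the 10 highest pooled folds lay at genes of several kinds. BOI, listed in RefSeq as RING (AT4G19700), encodes a RING protein known to bind DELLA proteins and to restrain gibberellin responses. Its site at chr4:10717089-10717690, 2614 bp upstream, had pileups of 318, 252 and 213 and a pooled fold of 2.96. That spread, a scaled pileup of 16.8 ± 4.55 (SD, n = 3), was the widest relative to the mean of all members, at a coefficient of variation of 27.0%. AT4G04630 had 307, 264 and 234 at chr4:2333386-2333962 with a pooled fold of 3.04. A site at chr1:14824244-14824966, in no window and 78585 bp from the nearest protein-coding gene, had 277, 279 and 313 with a pooled fold of 2.98, and its scaled pileups of 18.9, 17.8 and 18.7 were nearly level.

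The 10 members with no pooled peak stood apart in fold and in local background. Their folds over their own 10 kb background were 1.29 to 1.79 in the 3 replicates, whereas the other 375 members had median folds of 3.84, 3.57 and 3.12. The background around them, taken from the fold and the pileup and divided by the genome-wide level of the same library, averaged 2.60 to 7.46, with a median of 4.14. For the other 375 the median was 1.17. Replicate 1 had the lowest scaled pileup at 7 of the 10, and the median ratio of replicate 3 to replicate 1 was 1.14. These sites had many tags at the summit and also many around it.

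They lay in few places. The highest member of all, at chr2:7816-8124 near AT2G01021, had pileups of 505, 501 and 504 and folds of 1.30, 1.29 and 1.29. A pair on chromosome 4, at chr4:3978637-3978944 and chr4:3983150-3983621, had 338, 328 and 350, and 303, 297 and 324. The other 7 lay between 3247298 and 3502124 on chromosome 2. The pair on chromosome 4 lay in no gene window. The windows of 8 genes held the 8 sites on chromosome 2, and 5 of these genes, at 6 sites, had a mitochondrial gene as their best match in the authors' deposited table, among them AT2G07777, annotated there as an ATP synthase gene. The Arabidopsis chromosome 2 is known to carry a nuclear copy of much of the mitochondrial genome near its centromere. No wild type peak overlapped these 10 sites, but the nearest lay 284 to 27520 bp away and had wild type pileups of 260 to 552, with wild type backgrounds of 6.47 to 26.4 times the genome-wide level. At 3 of the 10, chr2:7816-8124 and the pair on chromosome 4, the nearest wild type peak was 284, 491 and 688 bp away, so the absence of a wild type peak there does not mean few wild type tags nearby. At the other 7 it was 2122 to 27520 bp away. Where it was 2122, 2885 and 4207 bp away, its background over 10000 bp was 13.3, 12.9 and 9.91 times the wild type genome-wide level. The RGA-GFP backgrounds of those members were 3.67, 2.60 and 4.10. The wild type level on the members themselves was not measured. The part of repeated or organelle-like sequence in these pileups was not tested.

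**Figure D3:**
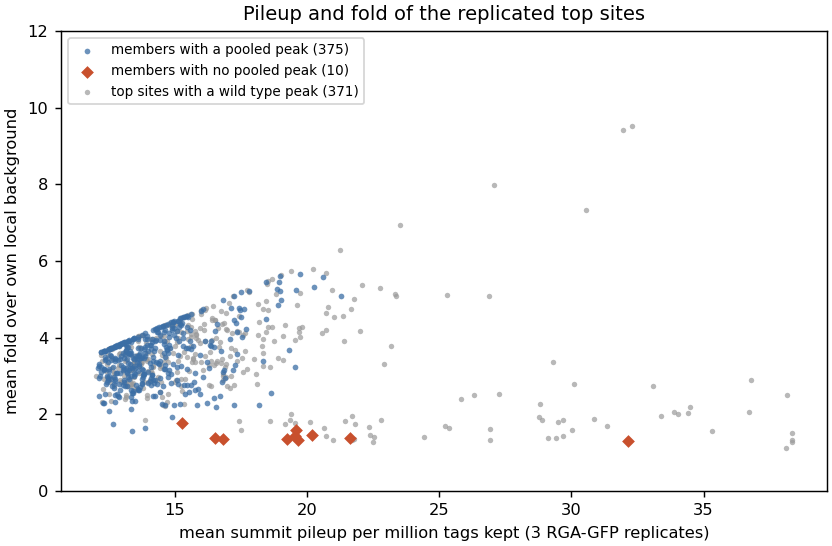
Mean fold over the library's own local background (vertical axis) against mean summit pileup per 1000000 tags kept (horizontal axis) over 3 RGA-GFP replicates, 1 point per site, for the 375 members with a pooled peak, the 10 members without and the 371 top sites with a wild type peak. The 10 diamonds lie at folds under 2, in the same low band as many top sites with a wild type peak, and the straight upper edge of the cloud is the fold of sites whose background equals the genome-wide level.

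Around the other members a background could be given for each of the 2 genotypes, though not by the same measure. For the 375 members with a pooled peak, the RGA-GFP background was 1.17 times its genome-wide level in the median, and the wild type background was 1.36 times its own. At 266 of the 375, or 70.9%, the RGA-GFP value was below the wild type value. At the 289 top sites with a wild type peak and a pooled peak this was so at 262, or 90.7%, and the wild type median was 1.70. Over all pooled peaks the wild type median was 1.10. The wild type value is the larger of a 1000 bp and a 10000 bp window and the RGA-GFP value uses the 10000 bp window, so they are not the same measure. The RGA-GFP value also comes from the RGA-GFP library itself, so it includes tags of the member and of peaks near it. By that measure wild type tags were denser around members than around the typical pooled peak, although no wild type peak was called on the members.

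The reverse, an RGA-GFP background at least 1.5 times the wild type one, held at 8 members, chosen here after their values were seen. Several of them lay close to another member or to a top site with a wild type peak. Tags of such neighbours can enter the RGA-GFP value, and the part of this was not tested. RGA itself, listed in RefSeq as RGA1, was one of their genes, with a site inside the gene at chr2:255517-257087. Its pileups were 199, 207 and 189, and its RGA-GFP background ratio was 2.19 against 1.14 for wild type. Sites at chr2:261453-262147 and chr2:262896-263881, 4365 and 5808 bp further on, had pileups of 270, 294 and 291, and 288, 270 and 250. Their ratios were 2.43 and 2.30 against 1.48 and 1.52. Between them and the RGA site lay a top site with a wild type peak, at chr2:258808-259418. Its scaled pileup was 29.3 against 12.7 at the RGA site, and its pooled fold was 2.17. The nearest wild type peak was 1807 bp from the RGA site. The transgene carries RGA sequence and an RGA promoter whose length the labels do not give, so tags from the transgene and from the native locus cannot be told apart here. GID1B, a gibberellin receptor gene, had its pair of sites in this group, at 1.98 and 1.93 against 1.15 and 1.07. The remaining 3 were chr1:9575328-9576128 by AT1G27565 and AT1G27570, with 2.31 against 1.00 and a pooled fold of 3.03, and a pair at chr1:15198223-15199642 and chr1:15200401-15201334, 42116 and 39765 bp from the nearest protein-coding gene.

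Genes were assigned by the windows of the authors' table, which run from 3000 bp before to 1500 bp after the coding sequence. The windows of 536 genes held a member, and 353 members lay in at least 1 window and 197 in 2 or more, so for those the gene is not fixed by position. Of the 536, 510 were protein coding in RefSeq, which is 1.86% of the 27444 protein-coding genes. Among genes with a pooled peak, 525 of 8629 or 6.08% had a member. The windows of top sites with a wild type peak held 41 of the 536. Lists for pathways of the shoot apex, with 2 comparison lists of seed storage and root genes, held 448 genes, and 48 of them, or 10.7%, had a member, from 22 of the 29 lists. The lists were written with earlier results of these data known, so the share is not evidence for the pathways. Counts per list and family below are to be read beside 1.86% of protein-coding genes and 6.08% of genes with a pooled peak. The nearest protein-coding gene to each summit gave 371 genes, or 1.35% of all.

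Genes of gibberellin synthesis, perception and signalling were among those with a member. Among receptors and signalling genes, 3 of 9 had a member and 7 had a pooled peak. Beside this, 1.86% of all protein-coding genes and 6.08% of all genes with a pooled peak had a member. GID1A had a site 1591 bp upstream at chr3:1428445-1429943 with pileups of 273, 243 and 231 and a pooled fold of 2.40, in windows shared with AT3G05110. GID1B had a site 875 bp upstream, at chr3:23288087-23288640, with 261, 261 and 187, and another 351 bp downstream, at chr3:23291545-23292038, with 257, 224 and 202. Their pooled folds were 2.59 and 2.79, and the sites lie on either side of the gene. SCL3, a GRAS gene that acts against DELLA proteins in gibberellin feedback, had a site inside it at chr1:18679887-18680425 with 240, 254 and 195 and a pooled fold of 2.91, 246 bp from the nearest wild type peak. Beside it, at chr1:18680584-18681406, lay a top site with a wild type peak and a higher scaled pileup, 25.3 against 14.7 at the member. The pooled fold of that neighbour was 2.29. Of the 5 DELLA genes, all of which had a pooled peak, RGA alone had a member.

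Among 21 genes of gibberellin synthesis and inactivation, 3 had a member and 11 had a pooled peak. GA20OX2, a 20-oxidase that makes gibberellin precursors, had pileups of 220, 221 and 184 at its downstream site and a pooled fold of 2.68. GA20OX3, another 20-oxidase, had 249, 252 and 213 at chr5:2241394-2242055, 1807 bp downstream, and a pooled fold of 2.10. GA2OX1, which inactivates gibberellin, had 236, 192 and 194 at chr1:29515529-29516503, 2689 bp upstream and nearer to AT1G78450, with a pooled fold of 2.45. Both genes of synthesis had their member downstream. None of the 7 genes of the GASA family of gibberellin-regulated peptides had a member, and 5 had a pooled peak. Since 6.08% of all genes with a pooled peak had a member, a count of 0 among 5 is near the background.

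Among partners and light signalling genes, JKD and IDD7 were 2 of 11 INDETERMINATE DOMAIN genes with a member. JKD, a zinc finger gene of root and shoot patterning, had 263, 272 and 221 at chr5:742217-742928, 2808 bp upstream, with a pooled fold of 2.64. IDD7 had 200, 205 and 188 at chr1:20565849-20566510 with 2.78, and that summit lay inside the neighbouring gene FRUCT5. PIF6, listed as PIL2, a phytochrome-interacting bHLH gene, had 276, 298 and 243 at chr3:22990854-22991619, 522 bp upstream, with 2.19. SPA4, of the COP1 partner family that represses light responses, had 277, 288 and 246 at chr1:19782517-19783465 with 2.63. PHYA, the far-red light receptor gene, was near the lower end with 204, 201 and 180, and its summit lay inside AT1G09575. In all, 3 of 20 genes of the light list had a member.

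Cell cycle inhibitor genes gave 3 of 11, and the 14 cell cycle driver genes gave 0. KRP1, KRP2 and KRP4 encode inhibitors of cyclin-dependent kinases. KRP1, listed as ICK1, had 253, 221 and 224 at chr2:9977562-9978606 beside the gene, with a pooled fold of 1.99. KRP2 had 223, 223 and 178 at chr3:18802273-18802858, 1017 bp downstream, with 2.46. KRP4 (AT2G32710) had 245, 265 and 225 at chr2:13875523-13876815 inside the gene, 174 bp from a wild type peak, with 2.04. All 11 inhibitor genes and 7 of the 14 drivers had a pooled peak. Since 6.08% of all genes with a pooled peak had a member, a count of 0 among 7 is near the background.

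Among flower, meristem and organ regulators, 2 of 21 floral, 1 of 16 meristem and 2 of 22 organ genes had a member. The TCP list gave 2 of 18 and the SPL list 3 of 16. In the same order, 13, 10, 15, 12 and 9 genes of these lists had a pooled peak. Beside this, 1.86% of all protein-coding genes and 6.08% of all genes with a pooled peak had a member. AP2, a floral organ identity gene, had 301, 301 and 256 at chr4:17398564-17399167, 1709 bp upstream, with a pooled fold of 2.74. A wild type peak lay 573 bp from that site. FUL, a MADS-box gene of fruit and meristem identity listed as AGL8, had 204, 194 and 173 at chr5:24508425-24509002, 2434 bp upstream, with 2.36. AP2 and FUL were 2 of 21 floral regulators. ATH1, a BELL homeobox gene of the shoot apex and the only member among 16 meristem genes, had 276, 256 and 218 at chr4:15917924-15918812, 68 bp upstream, with 2.76. PHB, an HD-ZIP III gene for the upper side of organs, had 238, 239 and 199 with 1.88, and AS1, a MYB gene of leaf patterning, had 226, 219 and 198 with 1.84. TCP4, which limits cell division in leaves, had 225, 250 and 198, and TCP7 had 231, 234 and 181. The pooled folds of TCP4 and TCP7 were 1.87 and 1.64, so PHB, AS1 and both TCP genes lay under the median of the members. SPL10 and SPL11 shared a site at chr1:9504130-9504768, in the windows of both, with 196, 194 and 179. The 9 growth-regulating factor genes gave 0. Of them 7 had a pooled peak, and at the 6.08% of all genes with a pooled peak a count of 0 among 7 is near the background.

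**Figure D4:**
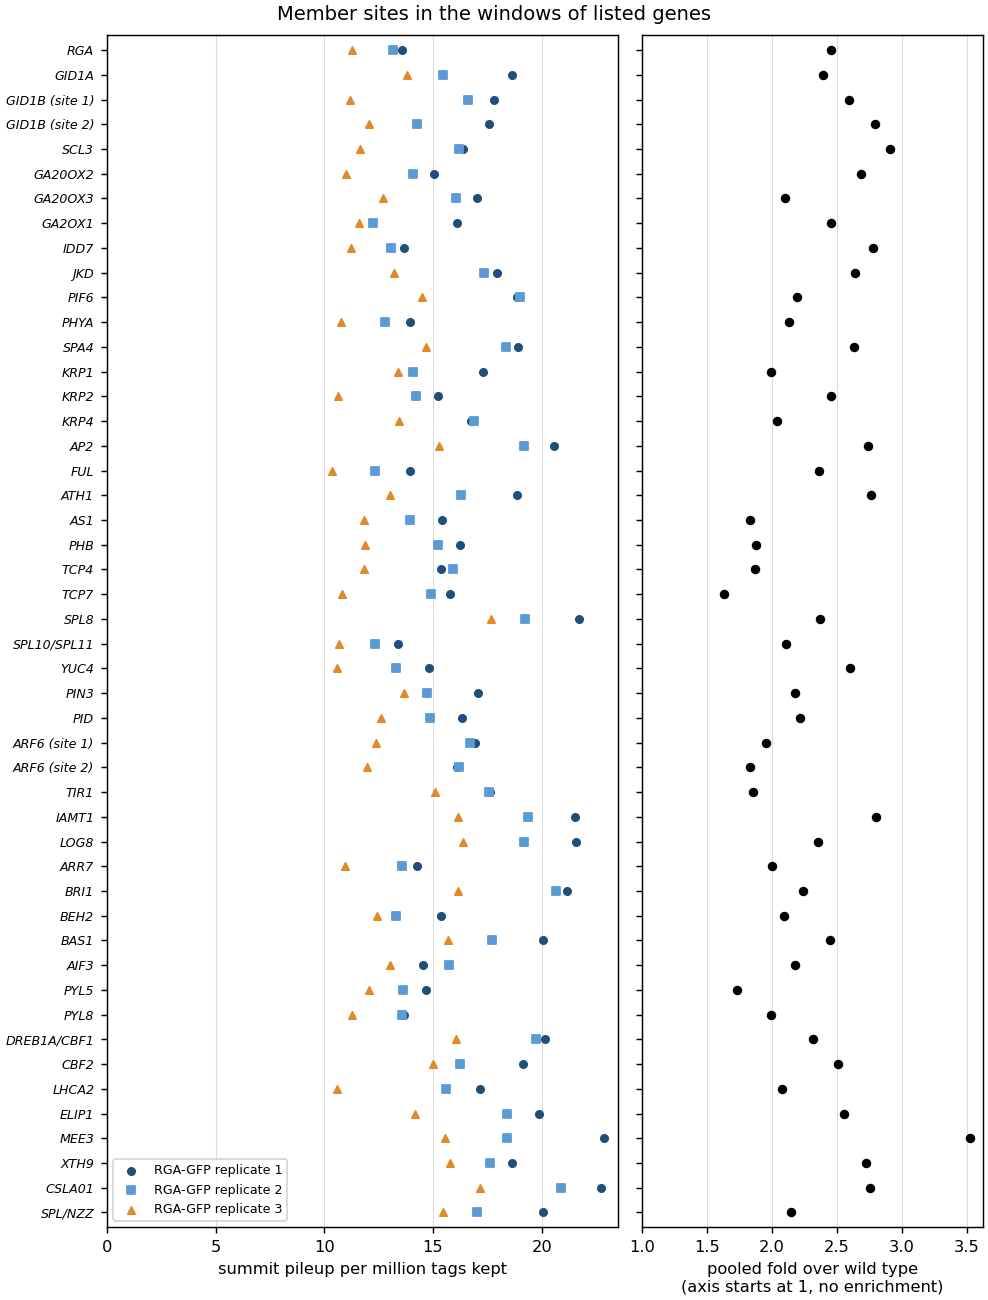
Summit pileup per 1000000 tags kept in each RGA-GFP replicate (left) and pooled fold over wild type (right) at the 48 members in the windows of listed genes, 1 row per site, ordered by list from gibberellin genes at the top. Replicate 3 (triangles) is the lowest at all 48, and pooled folds run from 1.64 at TCP7 to 3.52 at MEE3.

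Hormone pathways other than gibberellin contributed receptors and enzymes alike. In the auxin list 6 of 28 genes had a member. IAMT1, which methylates auxin, had 315, 304 and 270 at chr5:22410788-22411354, 128 bp upstream, with a pooled fold of 2.80. TIR1, an auxin receptor, had 258, 276 and 253 inside the gene with 1.85. PIN3, an auxin efflux carrier, had 250, 231 and 229 inside the gene with 2.17, and PID, a kinase that acts on PIN proteins, had 239, 233 and 211 with 2.22. YUC4, an auxin synthesis enzyme, had 217, 209 and 177 with 2.60, at a summit nearer to AT5G11330. ARF6, an auxin response factor, had sites on both sides, with 248, 262 and 207 at 2185 bp upstream and 236, 254 and 200 at 54 bp downstream.

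BRI1, the brassinosteroid receptor, had 310, 324 and 270 at chr4:18322352-18323133, 1659 bp upstream, with a pooled fold of 2.24. BAS1, which inactivates brassinosteroids, had 294, 278 and 263 inside the gene with 2.44, and BEH2, a BZR family gene, had 225, 209 and 208 with 2.09. These were 3 of 22 brassinosteroid genes. In the cytokinin list 2 of 34 had a member. LOG8, a cytokinin-activating enzyme, had 316, 301 and 274 inside the gene with 2.36, and ARR7, a type-A response regulator, had 209, 213 and 183 with 2.00. Among 26 ethylene and abscisic acid genes, the abscisic acid receptors PYL5, with 215, 214 and 202, and PYL8, with 200, 213 and 189, had a member. The 19 jasmonate genes gave 0. Of them 14 had a pooled peak and 5 a top site with a wild type peak, and at the 6.08% of all genes with a pooled peak a count of 0 among 14 is near the background.

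Of 9 cold-response DREB genes, 3 had a member. A site at chr4:13021048-13022084, in the windows of CBF1 and DREB1A, which activate cold responses, had 295, 310 and 269 with a pooled fold of 2.31. The CBF2 site, 159 bp upstream at chr4:13016061-13016601, had 280, 255 and 251 with 2.51. In the same list 3 genes had a top site with a wild type peak, and wild type peaks lay 1360 and 1152 bp from the 2 members. Other listed genes were ELIP1, an early light-induced protein gene, with 291, 289 and 237, LHCA2, a photosystem I antenna gene, with 251, 245 and 177, XTH9, a xyloglucan enzyme gene, with 273, 277 and 264, AIF3, a growth-restraining bHLH gene (AT3G17100), with 213, 247 and 218, and SPOROCYTELESS (AT4G27330), needed for sporocytes, with 294, 267 and 259. The SPOROCYTELESS summit lay nearer to AT4G27340. The clock list of 14 genes, the 8 seed storage genes and the 8 root genes gave 0 by windows, with 8, 3 and 1 genes that had a pooled peak. At the 6.08% of all genes with a pooled peak, counts of 0 among so few are near the background.

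Several small families had more than 1 member gene, and these families were picked after their values were seen. Of the 4 genes of the BOI group, BOI, BRG1 and BRG3 had a member, BRG1 with 276, 237 and 195 and BRG3 with 291, 258 and 232, and 3 of the 4 genes had a top site with a wild type peak. Of 4 related MYB genes, MYB44 (listed as MYBR1), MYB73 and MYB77 had a member. MYB44 had sites at chr5:26851342-26852004 and chr5:26852744-26854967, in windows shared with AT5G67290, with 260, 261 and 239, and 264, 248 and 229. TIR1 and AFB3 were 2 of 6 auxin receptor genes, and ARF2, ARF6 and ARF18 were 3 of 15 auxin response factors. TPR1 and TPR2 were 2 of 5 TOPLESS corepressor genes, and 4 of the 5 genes had a top site with a wild type peak. CAX1, CAX2 and CAX9 were 3 of 7 cation exchanger genes, FBH3 and FBH4 were 2 of 4 flowering bHLH genes, AP2 and TOE3 were 2 of 6, and the homeobox genes KNAT4 and KNAT7 were 2 of 4. A wild type peak lay 120 bp from the TOE3 site, 398 bp from that of MYB73, 573 bp from that of KNAT4 and 696 bp from that of ARF2.

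By the descriptions in the authors' deposited table, 36 of the 536 genes, or 6.72%, carried the phrase sequence-specific DNA binding transcription factor activity. That phrase misses transcription factor genes named above, among them SPL8, AP2, ATH1 and MYB44, so it does not give the full share of transcription factors. The share was 5.36% of the 485 genes at top sites with a wild type peak and 4.40% of the 8629 genes with a pooled peak. MYB genes were 11, or 2.05%, against 0.412% and 0.753%, and small auxin-induced and Aux/IAA genes were 10, or 1.87%, against 1.44% and 0.765%. By the nearest gene the latter were 5 of 348, or 1.44%. Not every family was higher. Kinase genes were 6.53% against 7.63% and 6.58%, RING and U-box genes 2.24% against 2.68% and 2.40%, and F-box genes 0.560% against 0.825% and 1.09%. No bZIP and no histone gene was among the 536, and these were 0.371% and 0.0927% of the genes with a pooled peak, so few could be met. Genes annotated as responding to gibberellin were 4, namely BOI, GID1A, GID1B and GIS, a zinc finger gene of trichome formation, out of 18 such genes with a pooled peak. In total 17 genes held 2 or more members. THA1, a threonine aldolase gene, TPPI, a trehalose phosphate phosphatase gene, and the transporter gene INT1 each had 2, and AT5G14700 had 3.

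A protein-coding gene held 100 of the 385 summits, or 26.0%. The share was close to that, at 31.0%, for top sites with a wild type peak, and higher, at 44.8%, for all replicate 1 peaks and 48.4% for pooled peaks, while gene bodies cover 54.1% of the chromosome span. Within 1000 bp outside a gene lay 178 summits, or 46.2%. Over 1000 and up to 3000 bp outside lay 86, or 22.3%, against 11.9% at top sites with a wild type peak and 11.8% of replicate 1 peaks. Beyond 3000 bp lay 21, or 5.45%, against 14.6% and 4.70%. The median distance outside a gene was 683 bp at members, 606 bp at top sites with a wild type peak and 443 bp over replicate 1 peaks. Peaks of 1 library are not replicates, so no test is given.

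**Figure D5:**
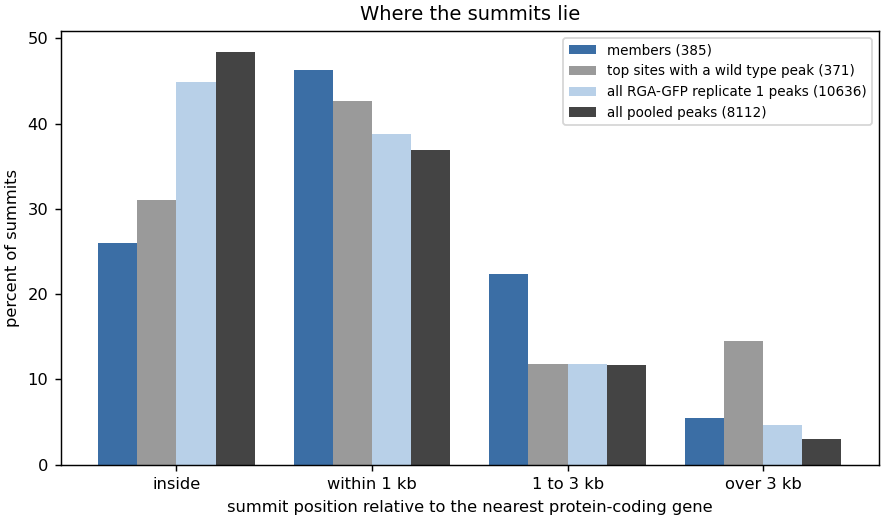
Percent of summits (vertical axis) inside a protein-coding gene or at 3 ranges of distance outside it (horizontal axis), for the 385 members, the 371 top sites with a wild type peak, the 10636 replicate 1 peaks and the 8112 pooled peaks. Members are lowest inside genes, at 26.0%, and highest over 1000 and up to 3000 bp outside, at 22.3%.

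The higher members had fewer summits inside genes. Ordered by mean scaled pileup, the highest 94 of the 375 members with a pooled peak had 17.0% of summits inside a gene, the next groups of 94 had 26.6% each and the lowest 93 had 31.2%. The median pooled fold was 2.36 in the highest group and 2.10 in the lowest. Members with a summit over 1000 and up to 3000 bp outside a gene had a median scaled pileup of 14.9 and a median pooled fold of 2.24, and those inside a gene had 13.8 and 2.10. The 32 members in no gene window were not weaker, with a median pooled fold of 2.33 over the 30 that had a pooled peak.

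Members had a median length of 712 bp, against 863 bp at top sites with a wild type peak and 508 bp over replicate 1 peaks. The 5 longest ran from 2059 to 2406 bp. They lay at AT2G07777 among the sites with no pooled peak, at ATAF1, a NAC transcription factor gene, with 205, 223 and 206, at AT5G19120, with 209, 195 and 173, upstream of MYB44, and at AT1G56220, with 207, 197 and 181. By chromosome, members numbered 99, 65, 78, 55 and 88 on chromosomes 1 to 5. Of neighbouring members, 8 pairs lay within 1000 bp of each other and 43 within 10000 bp.

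The replicate folds and the pooled fold did not rank members alike, with a Spearman coefficient of 0.352 over 375 members. The ratio of replicate fold to pooled fold was highest at chr1:8060576-8061256, 864 bp from the clock gene GI, the nearest gene, though in the window of AT1G22767 alone, where the replicate folds averaged 4.56 ± 0.53 (SD, n = 3) and the pooled fold was 1.74. Next was a site at chr5:26687887-26688486 upstream of AT5G66820, with 4.47 ± 0.43 and 1.71. The wild type background at these sites was 1.72 and 1.86 times the genome-wide level, against 1.00 and 1.14 in RGA-GFP. The others were at AT4G32160, AT2G26730 and AT4G19430. The ratio was lowest at AT1G27570, RGA, GID1B and a site far from genes at chr1:15200401-15201334, from 0.635 to 0.878, which are sites named above for their high RGA-GFP background. Each fold divides a pileup by a background, so the ratio of the folds largely restates the wild type background over the RGA-GFP one. The return of these sites is therefore not a separate result.

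A wild type peak lay within 1000 bp of 31 members, or 8.05%, and within 10000 bp of 120. Among the 375 members with a pooled peak, the 28 within 1000 bp of a wild type peak had a median pooled fold of 2.06, and the others had 2.15. The median distance to the nearest wild type peak over all members was 26452 bp.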

How the data were processed

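Anti-GFP ChIP-seq peaks from 3 RGA-GFP and 3 wild type libraries were used. Reads were aligned to TAIR10 with Bowtie2 and handled with SAMtools, per the submitters' processing notes. Per the file headers, the authors used MACS 2.0.10.20130915 on each library alone, kept 1 tag per position, extended tags by 300 bp, set q at 0.05 and took the local background over 10000 bp, and made a pooled list of combined RGA-GFP against combined wild type with 1000 and 10000 bp backgrounds. The deposited pileup is a coverage signal at the summit, not scaled to depth in the single lists, and the deposited fold is (pileup + 1) over (background + 1). The deposited -log10 q was used in alternatives alone. The authors' gene table, per its file headers, counts the RGA-GFP replicate lists with a peak in a gene's window, at 50 bp of overlap or more.

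From these files the sites were selected as stated in the report, pileups were given per 1000000 tags kept, and backgrounds were computed from the deposited fold and pileup and divided by tags kept times 300 over 9e7, the genome size in the headers. Where a member met several partner peaks the highest was used. Coordinates are TAIR10, as in the files. Gene names, bodies and distances came from RefSeq TAIR10.1, of which no coordinates are printed. Of 13259 genes matched to RefSeq, 82.8% lay whole inside the authors' window. Upstream or downstream is given only where the window shows the gene's direction.

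The members, gene lists and comparisons were chosen with earlier results of these data known. Named sites were the 12 highest by mean scaled pileup, the 10 highest pooled folds, those at the threshold, the 5 highest and 5 lowest ratios of replicate to pooled fold, those without a pooled peak, the 5 longest, and up to 4 per gene list by mean pileup. The auxin genes beyond 4, and sites said to be picked after their values were seen, are outside this rule. A site that the rule names is not reported here. The rule used all 6 libraries, so no test was run. Counts of extended tags are not independent molecules, and no interval is given. The selection code was run on simulated lists in which the planted sites stood above all other peaks, which checks the code and not the sites reported. Python 3.11.15, pandas 2.3.3 and matplotlib 3.10.9 were used.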

Additional observations from a re-analysis of the deposited data

How the results depend on the processing

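The set of sites was recomputed under 18 alternatives, of which keeping ties was chosen after seeing the data. The number of sites was 385 as reported, and 15 of the 18 gave a number within 1.5 times of it. It was 140 from the 500 highest peaks per list, 1003 from the 2000 highest and 756 with wild type peaks allowed. Without each RGA-GFP replicate in turn it was 421 to 458, and without each wild type replicate 389 to 563, the highest without replicate 1. Ranking by fold gave 447 sites that overlapped 250 of the 385 members, and ranking by -log10 q gave 425 that overlapped 295.

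The share with a pooled peak, 97.4% as reported, was 95% from the 500 highest, 99.8% by fold, 99.5% by -log10 q, 99.5% with only peaks at a -log10 q of 10 or more and 87.8% with wild type peaks allowed, and 96.3% to 97.5% without each library in turn. The median pooled fold, 2.14, was 2.32 from the 500 highest, 2.06 from the 2000 highest and 2.00 with wild type peaks allowed, and 2.05 to 2.13 without each library, the lowest without wild type replicate 1. The share of summits inside a gene, 26.0%, was 19.3% from the 500 highest, 30.1% from the 2000 highest and 24.9% to 28.6% without each library. The median scaled pileup of the members, 14.1, was 13.3 to 15.1 without each RGA-GFP replicate. By the nearest gene in place of windows, 371 genes were assigned in place of 536, and 42 listed genes in place of 48. For each value that moved, the cause was not tested.

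No paired analysis was possible because no result comes from a test. Motif windows were not run, since sequence was not used here. The smallest wild type library, replicate 3, kept 3999159 tags, so a weak wild type peak there was less detectable.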
